A study of Mus musculus with 4 samples.

Results

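Acod1, Nos2, Irf5, Cd86, Cd40 and Socs3 are 6 genes that macrophages use or induce when microbial products and interferon gamma activate them in the classical way. They were chosen by their known role and from ratios already measured on these arrays, with Acod1 at the centre because its signal was far lower in cells lacking C/EBPε. The ratios of the members between genotypes are therefore given as a description and were not tested. Every probe set whose platform annotation named exactly 1 of these genes was taken, which gave 8 probe sets for the 6 genes, out of 6137 genes with such a probe set. Acod1 had 3 probe sets, 2 on array type A and 1 on array type B, and each of the other 5 genes had 1, on A.

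The RNA came from peritoneal exudate cells of Cebpe-deficient (-/-) and of wild-type (+/+) mice, both on a mixed 129/SvEv x NIH Black Swiss background and 6 to 8 weeks old. Mice of both genotypes had received 2 ml of 4% thioglycollate broth into the peritoneal cavity, a sterile irritant that draws in neutrophils and then monocytes, and cells were lavaged 24 h later. The labels give 4 mice per genotype, and the label text breaks off where it begins to describe how cells were combined. They also give about 60% neutrophils, 30% monocytes and 7 to 10% lymphocytes by cytospin for both genotypes, so a lower signal in such a mixture cannot be told apart as fewer cells of a type or less RNA per cell. The stated aim was to find possible targets of C/EBPε, which acts late in the maturation of granulocytes, in neutrophils and macrophages. Total RNA of each genotype was hybridised to 1 array of each of 2 Affymetrix array types, A and B, which carry different probe sets, so there were 4 arrays and no replicate of any value.

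In classically activated macrophages, Toll-like receptors and the interferon gamma receptor act through NF-κB and interferon regulatory factors to switch on enzymes, costimulatory molecules and cytokines. ACOD1 (IRG1) is a mitochondrial enzyme that makes itaconate from the citrate cycle intermediate cis-aconitate. NOS2 makes nitric oxide from arginine, IRF5 is a transcription factor of inflammatory cytokine genes, CD86 and CD40 act in contact with T cells, and SOCS3 is a feedback inhibitor of cytokine receptor signalling through STAT3. Neutrophils, the most frequent cells of these exudates, also express several of these genes.

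The deposited values are linear intensities, which can be below 0 for a dim probe set, and 20.6% to 29.3% of the non-control values on the 4 arrays were below 0. Signals were multiplied to a common trimmed mean within each array type. A floor was set at the median of both arrays of a type, at 1036.5 on A and 690.2 on B. A ratio was given only where both arrays of a type read above the floor, and where 1 of them did, a bound against the floor was given. Levels below are the deposited readings, and ratios and multiples of the floor are of the scaled ones. No probe set carried the symbol Cebpe alone (0 found), so the deleted gene itself was no check of the labels. The B array of the deficient cells is named so in its title, while its RNA source is worded as for the wild-type arrays, so the labels conflict and every difference on B rests on the title. The neutrophil gene S100a8 read 62899 in deficient and 66423 in wild-type cells, and the macrophage gene Cd68 read 50831 in deficient and 41539 in wild-type cells, so markers of both labelled cell types were bright on the arrays. The summed bacterial hybridisation controls were lower on the deficient arrays, at 133741 against 153942 on wild-type A and 128637 against 163720 on wild-type B.

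Acod1 lies on chromosome 14 at chr14:103047012-103056573 in GRCm38.p6, on the plus strand. The 250 bases before its start are shown because Acod1 leads the group and the study asked about targets of a C/EBP factor. They come from RefSeq, at chr14:103046762-103047011 on the plus strand, 5′ to 3′, with capitals for the only match to 5 searched motifs:

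Acod1: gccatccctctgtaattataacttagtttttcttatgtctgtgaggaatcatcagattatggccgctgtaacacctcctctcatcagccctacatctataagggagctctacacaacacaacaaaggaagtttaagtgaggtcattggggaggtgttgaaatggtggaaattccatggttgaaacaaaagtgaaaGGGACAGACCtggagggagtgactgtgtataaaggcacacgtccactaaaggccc

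The motifs were searched on both strands of the 250 bases. The C/EBP letters TTGCNNAA were not in this window, and 9.55% of 27025 promoter windows of the same length held them. A loose form of the NF-κB site, GGG and CC with any 5 bases between them, matched once, at bases -55 to -46 counted back from the start, and 45.4% of all windows held it. The interferon gamma activated sequence TTCNNNGAA, the interferon response element, taken as GAAA repeated after any 2 bases, and the AP-1 letters TGANTCA, held by 7.18%, 3.04% and 6.87% of windows, did not occur. Of the other members, Irf5 and Socs3 had an entry in the RefSeq promoter table, each before a start that lies inside the gene's annotated span. Neither window held the C/EBP letters, each held the NF-κB form once, and that of Socs3 also held the interferon gamma activated sequence once, as TTCTTAGAA. These matches are letters only, no binding was measured, and nothing follows from them on which factors act there.

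Acod1 was far lower in Cebpe-deficient cells by both of its measurable probe sets. On array type B, probe set Msa.1614.0_at read 1603 in deficient cells and 9380 in wild-type cells, a log2 ratio of -2.55, or 5.86-fold lower. On array type A, probe set L38281_rc_g_at read 3251 in deficient cells and 8440 in wild-type cells, a log2 ratio of -1.38, or 2.60-fold lower. On B these readings were 2.32 times the floor in deficient cells and 13.6 times in wild-type cells, and on A 3.14 times in deficient cells and 8.14 times in wild-type cells. The deficient readings were above the floor on both array types. That on B was dim, since 4.31% of the probe sets of B read as far below 0 in deficient cells. That on A, at percentile 75.2, was less so, with 1.21% of the probe sets of A as far below 0. In wild-type cells 0.0765% of B and 0.0459% of A did. The Acod1 folds therefore rest on a bright wild-type and a weaker deficient reading, and their exact size is uncertain, most of all on B.

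The remaining Acod1 probe set, L38281_rc_at on A, read -76 in deficient cells and -165 in wild-type cells and gave no ratio. All 3 Acod1 probe sets are annotated to the same sequence record, L38281, so they stand for 1 gene and are not replicates of the genotype. That 1 of the 3 did not register the gene on either array, while another of the same record stood at percentile 90.6 of A in wild-type cells, was a difference between probe sets and not between genotypes.

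**Figure D1:**
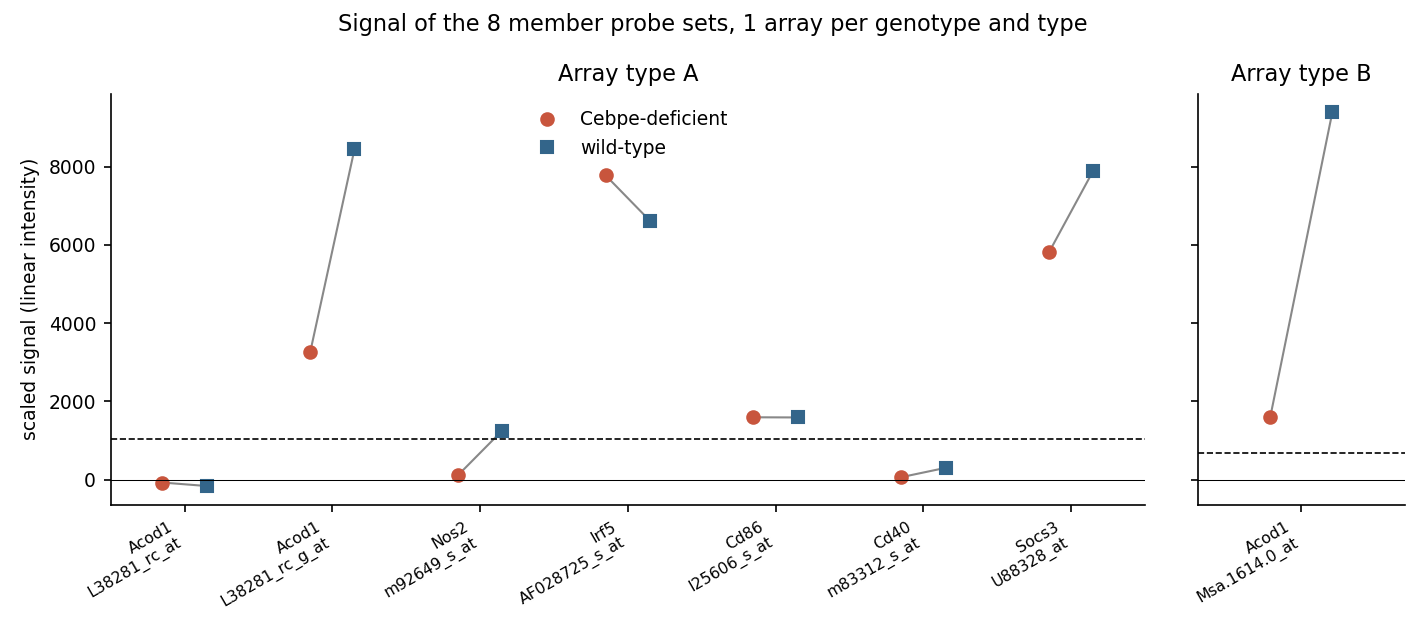
Scaled signal (linear intensity) of the 8 member probe sets, with Cebpe-deficient cells as red circles and wild-type cells as blue squares, 1 array each. Dashed lines mark the floor of each array type. The 2 measurable Acod1 probe sets show the widest gaps between genotypes among the brighter probe sets, while L38281_rc_at of Acod1 and the probe set of Cd40 lie below the floor in both genotypes.

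Among all probe sets with a ratio, Acod1 stood near the lower end on each array type. Its ratio was the 6th lowest of 2954 on B and the 32nd lowest of 2949 on A. Probe sets lower by 2-fold or more in deficient cells made up 3.76% of those with a ratio on B and 3.15% on A. Those higher by 2-fold or more made up 4.23% on B and 2.54% on A. Of the 736 probe sets on B whose wild-type signal was within 2-fold of that of Acod1, 5.16% were lower by 2-fold or more, and of 1017 such probe sets on A, 3.93% were. Repeat probe sets of the same gene on the same array type gave ratios that varied with an SD of 0.38 log2 units (296 genes), an error of measurement that holds no spread between mice. It covers only probe sets with a ratio, so disagreement with a probe set below the floor does not enter it. The Acod1 ratios were 6.78 and 3.66 times that SD on B and A. These multiples are no test, because Acod1 was chosen for its low ratio.

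The 2 Acod1 ratios differed from each other by 1.17 log2 units, more than most genes that could be read on both array types. Besides Acod1, 162 genes had a ratio on both types, and their ratios differed between the types by a median of 0.32. A difference as large as that of Acod1 or larger was seen for 6 of the 162, or 3.70%. The widest was Cryab, a small heat shock protein gene, at 1.23 on A and -1.31 on B. The direction of Acod1 was the same on both types, and 110 of the other 162 genes also kept 1 sign. Acod1 and Hsp90aa1, which encodes a stress-inducible chaperone, were the 2 genes of the 163 that were lower by 2-fold or more on both. Hsp90aa1 stood at -1.22 on A and -1.19 on B. The size of the Acod1 difference thus depended on the probe set, while both measurable probe sets put it past 2-fold. The remaining probe set of the same record, L38281_rc_at on A, gave no ratio. Because Acod1 was chosen for its low ratio on these arrays, its place past 2-fold on both types is a description and no test. RNA of each genotype went to both types, so A and B are not replicates of the genotype.

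**Figure D2:**
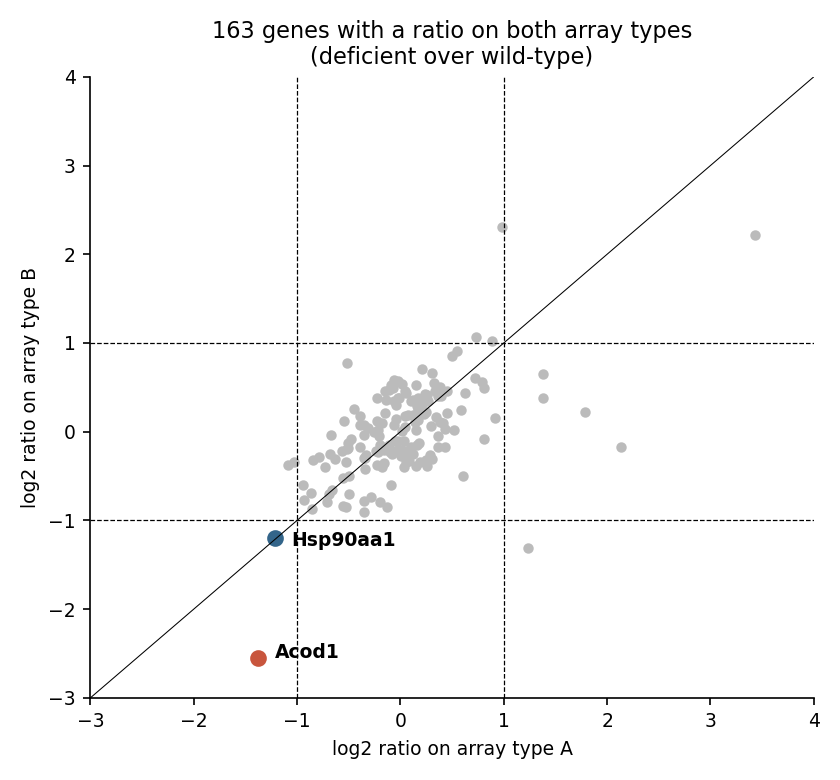
Log2 ratio, deficient over wild-type, on array type A (x axis) and B (y axis) for the 163 genes with a ratio on both. Dashed lines mark 2-fold and the solid diagonal marks equal ratios. Acod1 (red) and Hsp90aa1 (blue) are the only genes in the lower left corner past 2-fold on both.

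Genes with nearly the same ratio as Acod1 were found by the distance between log2 ratios over the 2 arrays of a type. On B, among 1033 named probe sets, these were the integrin gene Itga3 at -2.55, the metalloproteinase inhibitor gene Timp1 at -2.63, the cathepsin E gene Ctse at -2.70, the decoy receptor gene Il1r2 at -2.40 and the mannose receptor gene Mrc1 at -2.30. On A, among 2584, they were Cyp2a12 at -1.39, the neonatal Fc receptor gene Fcgrt at -1.36, the co-chaperone gene Bag3 at -1.40, Mrpl30 at -1.36 and Il1rn, the interleukin 1 receptor antagonist, at -1.34. A likeness over 2 arrays is 1 ratio and says nothing on how these genes are controlled. Of these genes Itga3 had further probe sets with a ratio, at 0.46 on B from a brighter one and at -0.15 on A, so its likeness to Acod1 held for 1 of its 3 probe sets. No gene was among the 5 nearest on both types. Of these genes only Itga3 had a probe set on both, so an overlap was hardly possible.

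Nos2, the nitric oxide synthase that is the textbook marker of classical activation, was dim. It read 109 in deficient cells and 1253 in wild-type cells. The deficient reading was below the floor and the wild-type reading was 1.21 times the floor, so the difference was given as a bound of at least 1.21-fold lower in deficient cells. Readings of this size were within the error of the array, since 18.5% of the probe sets of A read 109 or more below 0 in deficient cells and 4.56% read 1253 or more below 0 in wild-type cells. A floor at the 30th percentile, 255.9 on A, gave a Nos2 bound of -2.29 on the log2 scale, past 2-fold. At the 70th percentile Nos2 was below the floor in both genotypes. Whether Nos2 differed by 2-fold was therefore set by the choice of floor.

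Cd40, a receptor of the tumour necrosis factor receptor family through which T cells license macrophages and B cells, was below the floor in both genotypes, with 61 in deficient and 299 in wild-type cells. Of the probe sets on A, 19.7% read 61 or more below 0 in deficient cells and 13.6% read 299 or more below 0 in wild-type cells. A difference in Cd40 was not detectable at this signal. Cd86, the B7-2 ligand of CD28, read 1592 in deficient and 1587 in wild-type cells, a log2 ratio of 0.00 whose sign turned with the scaling. Both readings were about 1.5 times the floor, where 1.54 was the deficient and 1.53 the wild-type multiple, and 3.97% of probe sets in deficient cells and 3.42% in wild-type cells read as far below 0. The equal readings of Cd86 are therefore 2 dim values and do not show equal amounts of RNA.

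Irf5 and Socs3 were bright in both genotypes and differed little. Irf5, the transcription factor, read 7775 in deficient cells and 6610 in wild-type cells, a log2 ratio of 0.23. Socs3, the feedback inhibitor, read 5809 in deficient cells and 7895 in wild-type cells, a log2 ratio of -0.44 or 1.36-fold lower. The Irf5 ratio was 0.62 times and the Socs3 ratio 1.18 times the SD of repeat probe sets. On A 15.9% of the ratios were lower than that of Socs3 and 70.2% were lower than that of Irf5, so Socs3 lay on the low side and Irf5 in the upper part of the range common to all probe sets.

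Of the 8 member probe sets, 5 had a ratio, 1 a bound and 2 neither. Both Acod1 ratios were lower by 2-fold or more and no member probe set was higher by that much. The median of the 5 ratios was -0.44, against 0.02 over all probe sets with a ratio on each array type. That median rests on Acod1 being read by 2 probe sets. By genes, each with its brightest probe set, 4 members had a ratio, of which 1 was lower by 2-fold or more, and their median was -0.22. Over all genes 3132 had a ratio, 3.67% of them lower and 3.03% higher by 2-fold or more, and the median was 0.01. Since earlier ratios chose the members, nothing is read from their count. Within the group Acod1 alone had ratios past 2-fold, Socs3 was below 0 by less, Irf5 was above 0 and Cd86 was at 0. The Nos2 bound was below 0 too, but a bound sets only a minimum, so Nos2 cannot be ranked against the ratios.

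**Figure D3:**
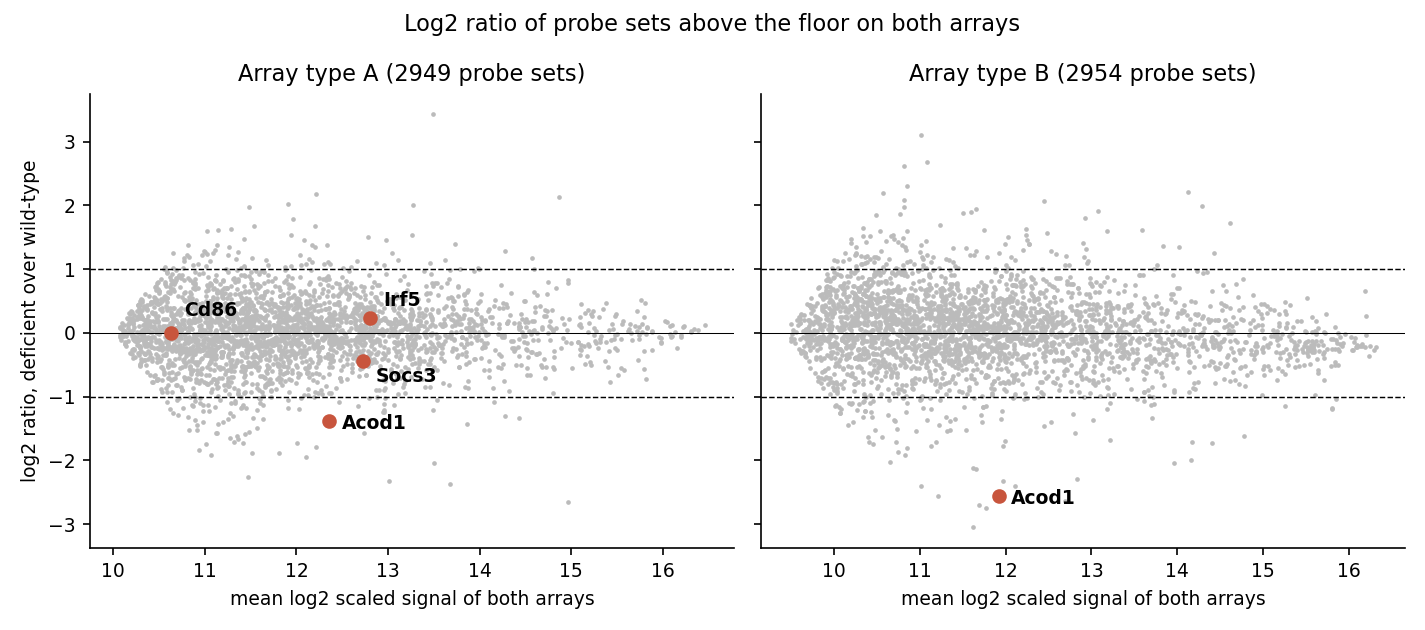
Log2 ratio, deficient over wild-type, against the mean log2 scaled signal of both arrays, for the 2949 probe sets of A and 2954 of B above the floor on both arrays. Member probe sets are in red and dashed lines mark 2-fold. Acod1 lies at the lower edge on both types, while Irf5, Cd86 and Socs3 lie inside the bulk.

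**Figure D4:**
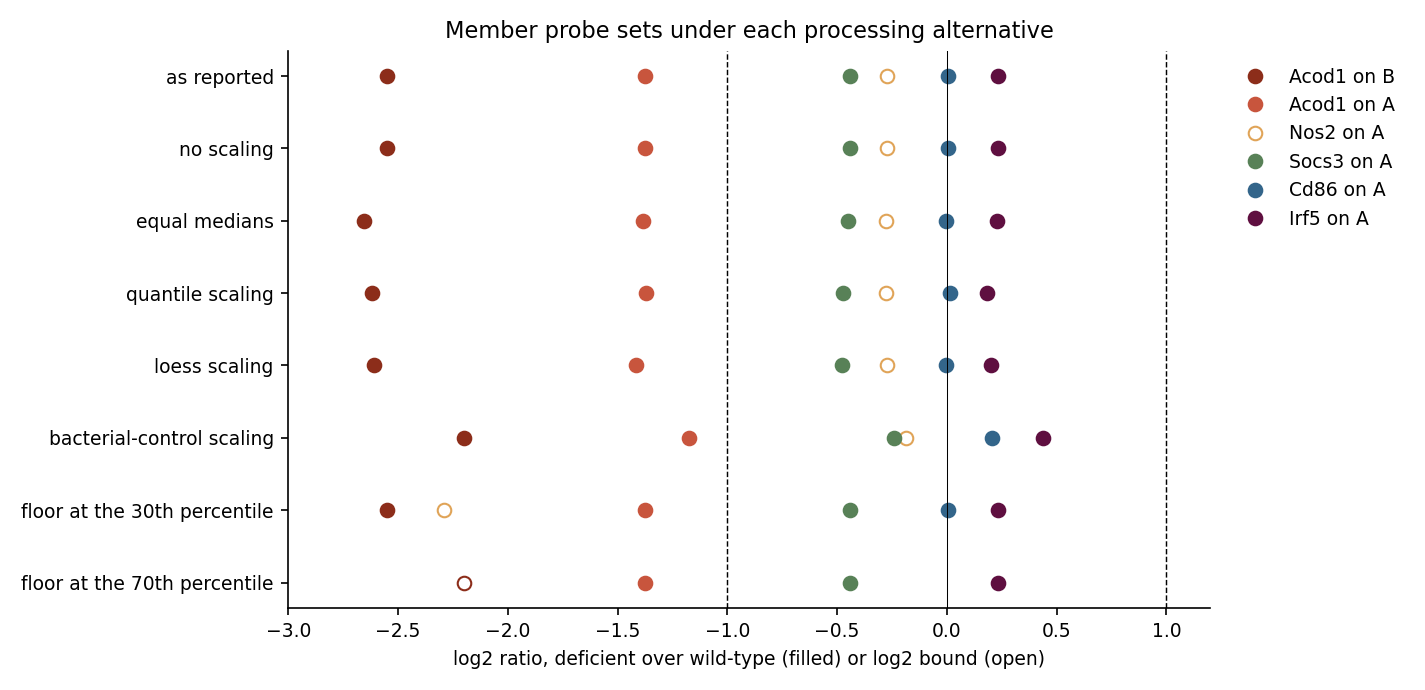
Log2 ratio (filled) or bound (open) as reported and under 5 other scalings and 2 other floors, for the member probe sets that had a ratio or a bound as reported. Cd40 and L38281_rc_at of Acod1 had neither and are not drawn. The Acod1 points stay past 2-fold (dashed line) throughout, and the Nos2 bound passes 2-fold only with the floor at the 30th percentile.

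Other genes of classical activation that could be read had ratios below 0, nearer to it than those of Acod1. Of 28 further genes listed for this program, 18 had a probe set with 1 symbol, 7 had a ratio and 4 a bound. All 7 ratios were below 0, with a median of -0.49, while 49.1% of all 3132 genes with a ratio were below 0. The list was chosen with earlier results of these data known, so this count is a description and no test. Scaling to the bacterial controls shifted the median of all probe sets to 0.21 on A and 0.36 on B, and with it 5 of the 7 were below 0. A floor at the 30th percentile gave the list 13 ratios, of which 10 were below 0 and 3 above. Il1b, the inflammatory cytokine, was the only one lower by 2-fold or more as a ratio, with 5413 in deficient and 11705 in wild-type cells, a log2 ratio of -1.11. The interferon-induced chemokine gene Cxcl10 stood at -0.73, the scavenger receptor gene Marco at -0.53, the interferon-induced factor gene Irf1 at -0.49, Tnf at -0.39, the acute phase gene Saa3 at -0.23 and the activin subunit gene Inhba at -0.19. A second Tnf probe set, on A, stood at 0.15.

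Gbp2, an interferon-induced GTPase, read 494 in deficient and 3425 in wild-type cells and was at least 3.31-fold lower. Genes with a bound only were lower by a bound of 2-fold or more in 9.08% and higher in 9.89% of 617 cases over all genes. Fcgr1, the high-affinity Fc gamma receptor induced by interferon gamma, had a bound in the other direction, with 1614 in deficient and 430 in wild-type cells, a bound of at least 1.56-fold higher. The cytokine genes Il6, Il12a and Il12b, the chemokine genes Cxcl9 and Ccl5 and the prostaglandin synthase gene Ptgs2 were below the floor in both genotypes.

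The receptors and signalling genes upstream of these, for lipopolysaccharide and interferon gamma, had ratios on both sides of 0. Of 34 listed genes 22 had a probe set and 15 a ratio, with 8 below 0, 7 above and a median of -0.02 (0.28 with the bacterial controls). Cd14, the lipopolysaccharide co-receptor, read 41219 in deficient and 84127 in wild-type cells, a log2 ratio of -1.03. Ifngr1, the ligand-binding chain of the interferon gamma receptor, read 13382 in deficient and 4894 in wild-type cells, a log2 ratio of 1.45 or 2.73-fold higher. The adaptor gene Myd88 stood at -0.07, the NF-κB subunit gene Rela at 0.41 and its inhibitor gene Nfkbia at -0.27. Ifng itself read -45 in deficient and -400 in wild-type cells.

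Around Nos2, the arginine and nitric oxide list held 16 genes, 11 with a probe set and 7 with a ratio (median 0.04, just below 0 with quantile and loess scaling). Arg1, the arginase that competes for the substrate of NOS2, read 12695 in deficient and 80067 in wild-type cells, a log2 ratio of -2.66. Its isoenzyme gene Arg2 stood at 0.41 and the arginine transporter gene Slc7a2 at -0.28. Nos1, the neuronal synthase, read 1629 in deficient and 746 in wild-type cells, a log2 ratio of 1.12 from a wild-type value just above the floor.

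Around Acod1, the citrate cycle and its neighbours showed no common direction. Of 28 listed genes 19 had a probe set and 14 a ratio, with 6 below 0, 8 above and a median of 0.12. Idh2, mitochondrial isocitrate dehydrogenase, read 1783 in deficient and 4036 in wild-type cells, a log2 ratio of -1.18. Idh1, its cytosolic counterpart, read 18374 in deficient and 9278 in wild-type cells, a log2 ratio of 0.99, just under 2-fold. Suclg1, a subunit of succinyl-CoA ligase, was at least 2.69-fold higher in deficient cells, with 2784 against 1016 in wild-type cells. Nfe2l2, the antioxidant regulator NRF2 that itaconate is known to activate, stood at 0.98, and its target gene Hmox1 at -0.12.

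Among the interferon regulatory factors besides Irf5, 4 of 7 with a probe set had a ratio, from -0.49 for Irf1 to 0.21 for Irf2, with a median of -0.02 (0.18 with the bacterial controls). In the costimulation list the 3 ratios, of the adaptor and signalling genes Traf2 (0.43), Traf6 (0.64) and Tank (0.21), were above 0. Traf2 was read by 1 of 2 probe sets and Traf6 by 1 of 3, the others being below the floor in both genotypes. Tank was dim, with 1420 in deficient and 1223 in wild-type cells against a floor of 1036.5. Cd80, the B7-1 partner of CD86, read 878 in deficient and 1155 in wild-type cells, on either side of the floor. In the list of SOCS genes and the cytokine receptors they restrain, 6 of 8 ratios were above 0 (median 0.31). The family member Cish stood at 0.68, Stat3 at 0.30 and 0.88 by its probe sets, and Socs1 and Socs2 were below the floor in both genotypes. Il10ra, a chain of the interleukin 10 receptor, read 6140 in deficient and 2947 in wild-type cells, a log2 ratio of 1.06, and Csf3r, the granulocyte colony-stimulating factor receptor that SOCS3 inhibits, read 12566 in deficient and 31162 in wild-type cells, a log2 ratio of -1.31.

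Markers of the cell types in the exudate also differed between genotypes. All 9 neutrophil markers with a ratio were below 0 (median -0.62), though 7 or 8 of the 9 were with quantile, loess or bacterial-control scaling. The median was -0.27 with bacterial-control scaling, and a floor at the 30th percentile gave -1.31 over 11 ratios. The summed scaled signal of the 12 with a probe set was 203917 in deficient and 264737 in wild-type cells. S100a8 and S100a9 stood at -0.08 and -0.24, Csf3r at -1.31, Ly6g at -1.44, Ngp at -1.57 and Il1r2 at -2.40, Cxcr2 was at least 2.05-fold lower, and Camp did not reach the floor on either array. Of 16 monocyte and macrophage markers with a ratio 10 were below 0 (median -0.28; 8 with the bacterial controls). The summed signal of the 17 with a probe set was 601580 in deficient and 625797 in wild-type cells, and none of them was below the floor on both arrays. Csf1r and Ccr2 stood at 0.84 and 0.97, Mrc1 at -2.30 and Apoe at 2.21 on B and 3.43 on A. Of 7 resident peritoneal macrophage markers 5 were below 0 (median -0.43), from Serpinb2 at -1.68 to Cd93 at 0.37, with a summed signal of 70482 in deficient and 84982 in wild-type cells. Acod1 was chosen for its low ratio, so nothing is read from its place against the medians of these 3 lists. Single markers stood close to Acod1 on each type, Il1r2 and Mrc1 on B and Ngp and Csf3r on A. The part of cell composition in the Acod1 difference was not tested.

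**Figure D5:**
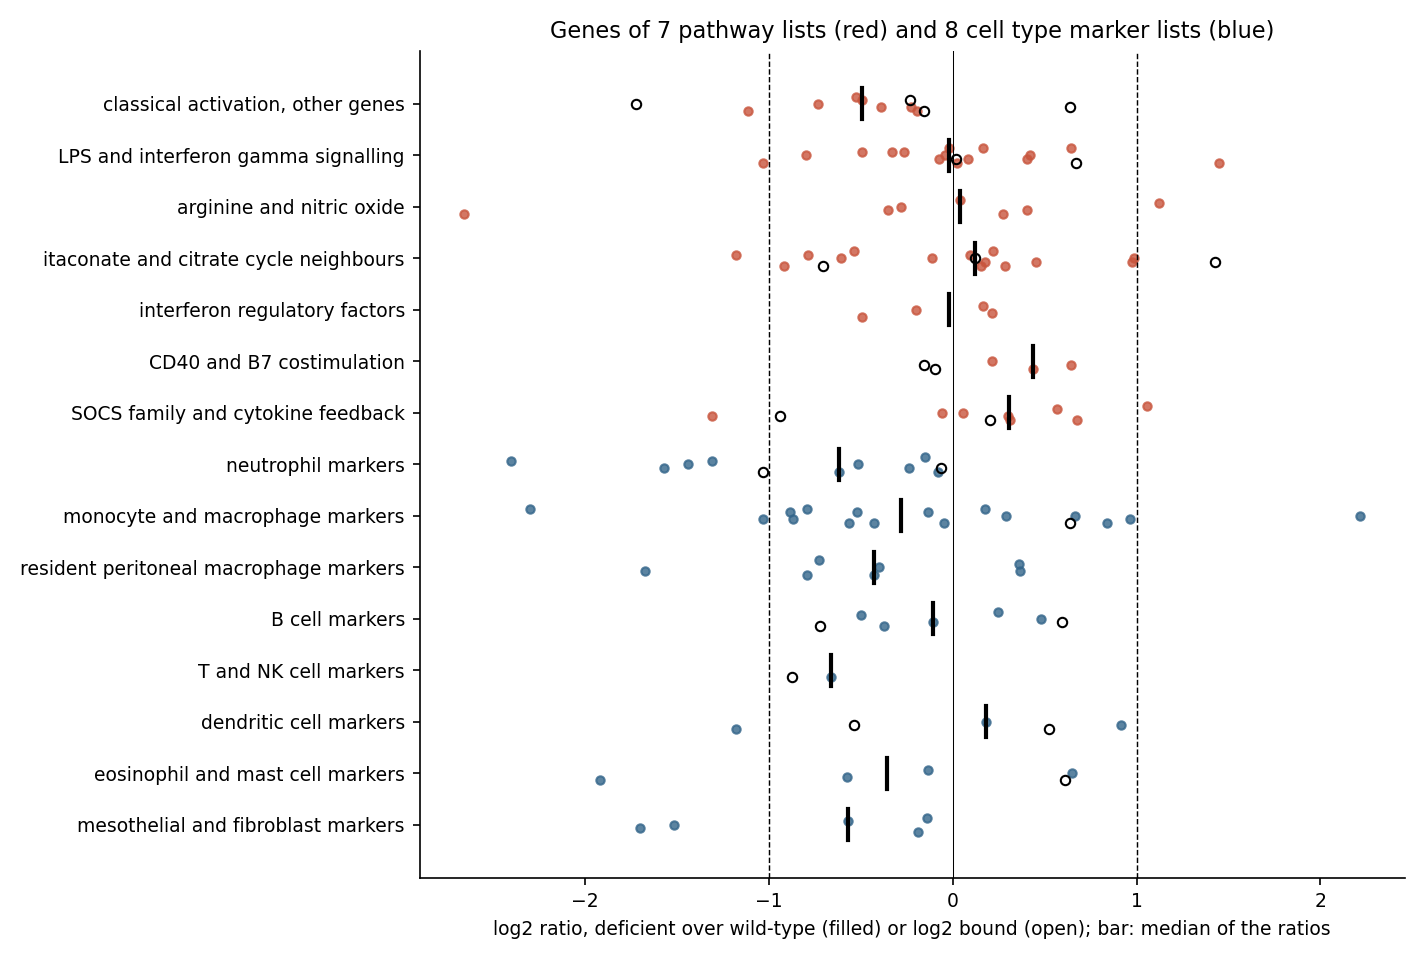
Log2 ratio, deficient over wild-type (filled points), or bound (open points) for the genes of 7 pathway lists (red) and 8 cell type marker lists (blue), with the median of the ratios as a black bar and 2-fold as dashed lines. As scaled here, all ratios of the other classical activation genes and of the neutrophil markers lie below 0 (5 of 7 and 7 of 9 with bacterial-control scaling, and 10 of 13 and 11 of 11 with the floor at the 30th percentile), while the signalling, citrate cycle and interferon regulatory factor lists straddle it. The lists were chosen with earlier results of these data known.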

How the data were processed

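The authors deposited 1 intensity per probe set on a linear scale, as whole numbers, for 4 one-colour Affymetrix arrays, 1 per genotype and array type. Software, background correction and scaling: not given in the sources used here. Groups came from sample titles and array types from the 2 value tables. Gene names came from the platform annotation, and only probe sets with 1 symbol were named.

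Within a type, each array was multiplied so that its mean over non-control probe sets, trimmed by 2% at each end, was equal (factors 0.999 to 1.001). The floor was the 50th percentile of both arrays. Counts are of ratios, or of bounds, past 2-fold, and a gene in a list was read by its brightest measured probe set. With 1 array per genotype and type there was no test, and the number of arrays limits the precision. The members and the 15 lists were chosen with earlier results of these data known. Named genes were the members, list genes past 2-fold or at either end of a list, and the 5 genes nearest each Acod1 ratio. Other list genes, Hsp90aa1 and Cryab were named once their values had been seen. Alternatives were unscaled values, medians made equal, quantile, loess (span 0.3) and bacterial-control scaling, floors at the 30th and 70th percentiles, 3-fold, no suffixed probe sets, 1 array type, and averaging the probe sets of a gene. The code was tested on simulated arrays. Software was matplotlib 3.10.9, statsmodels 0.14.6, scipy 1.17.1, pandas 2.3.3, numpy 2.4.6 and Python 3.11.15.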

Additional observations from a re-analysis of the deposited data

How the results depend on the processing

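The Acod1 ratio stayed lower by 2-fold or more under all 5 scalings and both floors, from -1.42 to -1.17 on A and from -2.66 to -2.20 on B, where the floor at the 70th percentile left a bound of -2.20 in place of a ratio. Of the 2 member ratios past 2-fold, 1 was left with that floor, at 3-fold, without suffixed probe sets and on A or B alone, and 1 bound was added by the floor at the 30th percentile (Nos2) or the 70th (Acod1). Suffixed probe sets are those with f, g, r, i or s as a separate letter before the closing _at. The Acod1 ratio on A came from a suffixed one, L38281_rc_g_at, and L38281_rc_at, without a suffix, gave no ratio. Across the 5 scalings and 2 floors, Socs3 stayed below 0 (-0.48 to -0.24) and Irf5 above (0.18 to 0.44), while Cd86 turned just below 0 with equal medians and loess. Bacterial-control scaling moved the median of all probe sets to 0.21 on A and 0.36 on B, and it put the classical list at -0.29, the lipopolysaccharide and interferon gamma list at 0.28, the regulatory factors at 0.18, the citrate cycle list at 0.33 and the SOCS list at 0.51. Without suffixed probe sets few genes were left, with medians of -0.19 for 3 classical genes, 0.58 for 2 arginine genes and -0.73 for 2 citrate cycle genes. Averaging the probe sets of a gene gave 0.44 for the SOCS list and 0.20 for the arginine list. The arginine median turned just below 0 with quantile and loess scaling. No paired analysis was possible because each genotype had 1 array per type. Nos2, Cd40 and Cd86 were too dim for their differences to be read.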

Other observations

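Markers of less frequent cells gave few ratios. Of 5 mesothelial and fibroblast markers with a ratio all were below 0 (median -0.57), with the collagen gene Col3a1 at -1.70 and the matrix protein gene Sparc at -1.51. The other 5 listed markers were below the floor in both genotypes, and so was a further Col3a1 probe set, on A. With bacterial-control scaling 4 of 5 were below 0 and the median was -1.16, and a floor at the 30th percentile gave a median of -1.51. In the list of eosinophil and mast cell markers the chemokine receptor gene Ccr3 stood at -1.92 and the protease gene Mcpt4 at 0.65, while the eosinophil granule genes Epx and Prg2 were below the floor in both genotypes. Of 5 B cell markers with a ratio 3 were below 0 (median -0.11, against 0.09 with bacterial-control scaling). Of the T and NK cell markers, Gzma stood at -0.66, Cd3e was at least 1.83-fold lower, and the other 5 with a probe set were below the floor in both genotypes. Dendritic cell markers ranged from -1.18 for the actin-bundling gene Fscn1 to 0.92 for the transcription factor gene Zbtb46. Flt3 had a bound of 1.44-fold higher in deficient cells, from a dim probe set on B with 993 in deficient and 252 in wild-type cells. Its probe set on A was below the floor in both genotypes.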
